A study of Mus musculus with 11 samples.

Results

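Mouse induced pluripotent stem cells (iPSC) grown without feeder cells were compared, gene by gene, with the embryonic fibroblasts that serve as feeder cells. These are 5 of the 11 samples of the series, chosen by their labels: 2 arrays of feeder cells and 3 of feeder-free iPSC, all from strain C57BL/6. The labels give the feeder cells as fibroblasts that express LIF, a cytokine of the interleukin 6 family, under the name MSTO, while SNL76/7 cells treated with mitomycin C stand in the growth protocol, with no word on how the names relate. The iPSC received LIF at 1000 units per ml in medium with 15% serum, so both groups had LIF in their culture, from the cells themselves or as an addition. The remaining 6 samples are 3 arrays of iPSC grown on feeder cells, which here only help to estimate the spread between arrays, and 3 mixtures computed by the authors from 92% feeder-free and 8% feeder signal. The feeder-free columns of the deposited signal table hold pooled values, so each feeder-free array was recovered from its mixture by taking off the feeder share. The labels number the replicates without saying whether they were separate cultures, so p-values measure only the spread between these samples, which may be technical.

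Pluripotent stem cells are held in their state by a small network of transcription factors around Oct4 (Pou5f1), Sox2 and Nanog, and in the mouse LIF sustains it by way of its receptor Lifr, the co-receptor Il6st and the transcription factor Stat3. They grow as compact colonies joined by E-cadherin, like an epithelium. Embryonic fibroblasts are mesenchymal cells that secrete and remodel the collagen matrix, spread on it with contractile actin bundles, keep a Hox code of their position in the body and release cytokines and growth factors. When fibroblasts are reprogrammed to iPSC, the fibroblast programme is lost and epithelial genes are gained.

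After background correction and quantile normalization, 10058 genes were tested, each by its brightest probe on a log2 signal scale, with limma and Benjamini-Hochberg adjustment over all of them. A gene was called at an adjusted p under 0.05. The 2 feeder arrays detected 14574 and 13581 of 46627 probes, and the 3 feeder-free arrays 18759, 17864 and 17307. The feeder arrays correlated at 0.995 with each other and the feeder-free arrays at 0.994 or more, against 0.760 to 0.764 between the groups. Of the genes tested, 8233 (81.9%) were called, 4103 (40.8%) higher and 4130 (41.1%) lower in iPSC, and 2172 (21.6%) were called at least 2-fold higher and 2057 (20.5%) at least 2-fold lower. The median difference over all genes was 0.84 log2 units in size, while the median standard deviation within a group was 0.08 for feeder cells and 0.12 for iPSC. The balance of the directions was set by the scaling of the arrays. With each array scaled to its median over all probes, 4208 genes were higher and 2368 lower, so that 64.0% of calls were higher instead of 49.8%, and the median of all genes moved to 0.28. Scaled over the probes kept for the test, a choice made after the data were seen, 2799 were higher and 5193 lower (35.0% higher), with the median of all genes at -0.39. Under all 3 scalings 2797 genes (27.8%) stayed higher and 2368 (23.5%) stayed lower, and the called direction turned for 96 genes, 2 of them among the 4229 called at least 2-fold. Differences below are on the quantile scale, and small ones should be read against those shifts.

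The identity of both groups followed the markers. All 9 pluripotency markers tested were higher in iPSC, with a median difference of 4.95 log2 units, and 9 of 10 fibroblast markers were lower, with a median of -3.11. Over all genes 40.8% were called higher and 41.1% lower, the median was -0.01, and array values of the groups did not overlap for 87.9%. In bulk RNA fewer cells of a type and less RNA per cell cannot be told apart. Pou5f1 had log2 signals of 4.86 and 6.31 in feeder cells and of 12.54, 12.68 and 12.80 in iPSC. Thy1, a surface protein of fibroblasts, had 12.56 and 12.85 in feeder cells and 8.60, 8.64 and 8.58 in iPSC. The groups did not overlap for either gene, and both differences were called, Pou5f1 at 136-fold higher (log2 7.09 ± 0.30 SE, adjusted p = 3.23e-10, limma) and Thy1 at 17.2-fold lower (log2 -4.10 ± 0.12 SE, adjusted p = 1.94e-11). The exception among the fibroblast markers was Fn1, the gene of the matrix protein fibronectin, which was 2.76-fold higher in iPSC. Of the other listed fibroblast markers, Col1a2, Col3a1, Lum and Postn had probes that no feeder and no feeder-free array detected, and among the pluripotency markers the same held for Fut4. Of 16 leukocyte markers 3 were tested, Cd14 being lower and Coro1a and Laptm5 higher in iPSC, and of 14 muscle markers 6 were tested.

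**Figure D1:**
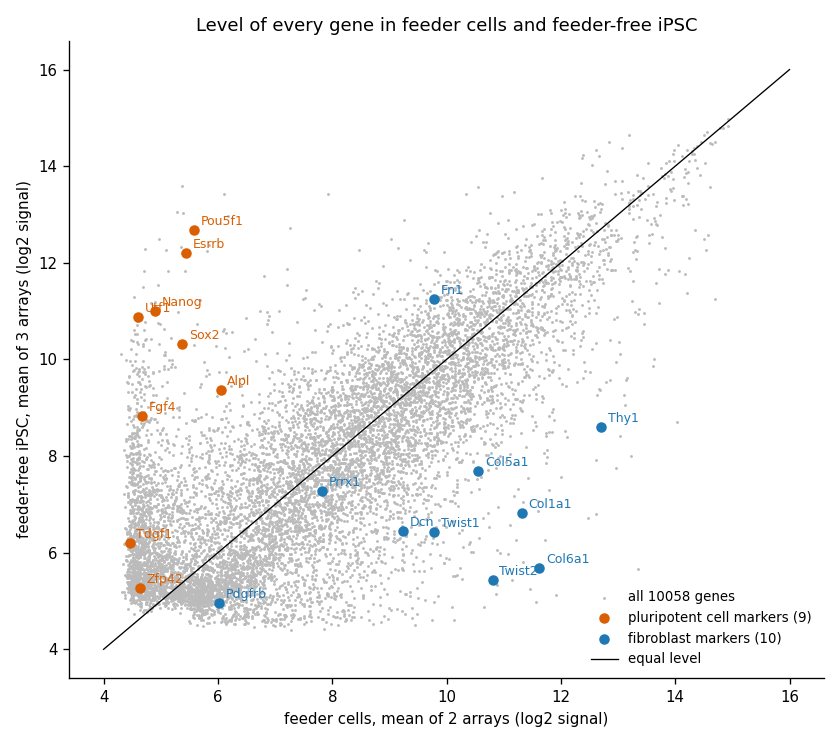
Mean log2 signal of each of the 10058 genes in feeder cells (2 arrays, horizontal axis) and feeder-free iPSC (3 arrays, vertical axis), with the line of equal level. The 9 pluripotency markers lie above the line and 9 of the 10 fibroblast markers below it, Fn1 being the exception.

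The second feeder array had higher signals than the first for most pluripotency genes, though not for these alone. Of the 17 core pluripotency factors tested, 16 had a higher signal on the second than on the first feeder array, against 5212 of all 10058 genes. The same held for 15 of 17 genes in the naive pluripotency list and for 191 of the 289 genes called at least 10-fold higher in iPSC. Fibroblast markers leaned the same way, 8 of 10, with a median shift of 0.171 against 0.168 for the core factors. So did 103 of the 173 genes called at least 10-fold lower in iPSC. Large gaps were less evenly spread. Over all genes 21 were more than 1 log2 unit higher on the second than on the first feeder array, and 13 of these were among those 289 genes. They included the glucose carrier gene Slc2a3, with 4.73 and 7.63 in feeder cells against 12.98 on average in iPSC, and the growth factor gene Igf2, with 5.69 and 7.30 against 10.86. What set these signals apart was not tested. The folds of these genes depend on the feeder array used: Pou5f1 was 77.7-fold higher in iPSC without the first feeder array and 224-fold without the second, Slc2a3 38.9-fold and 305-fold, Esrrb 55.9-fold and 198-fold, and Igf2 11.3-fold and 34.7-fold. The median of the core factors was 4.70 without the first and 4.97 without the second feeder array.

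Genes measured in a single group were counted by detection. The arrays report a detection score, and 1710 genes were detected on all 3 feeder-free and neither feeder array, of which 1558 (15.5% of genes tested) were called higher in iPSC, 149 were not called and 3 were called lower. In reverse, 264 genes (2.62%) were detected on both feeder arrays and no feeder-free array, and all were called lower. Both sets were picked by detection, so the direction of their calls follows largely from that choice and is no separate result. Without the second feeder array the count of genes detected in feeder cells only was 419. For such genes only a bound on the fold can be given, computed against the dimmest signal that counts as detected, and they have no measured level in the dim group. A gene detected on some arrays of its dim group, such as Pou5f1 on 1 of 2 feeder arrays, keeps its measured fold. The largest bounds in iPSC were those of Tex19.1, a germline and stem cell gene that restrains retrotransposons, at least 131-fold higher, Snrpn, an imprinted splicing-factor gene, at least 113-fold, and the Nodal antagonists Lefty2 and Lefty1, at least 81.8-fold and 67.5-fold. Tex19.1 had 4.96 and 4.97 in feeder cells, where it was not well above background, and 12.33, 12.58 and 12.58 in iPSC (adjusted p = 3.89e-13). Next came Rangrf at 65.1-fold, the keratin gene Krt8 at 56.9-fold, the imprinted placental growth regulator Phlda2 at 52.4-fold, the glycine-cleavage enzyme gene Gldc at 51.9-fold, Nanog at 46.7-fold, Wfdc2 at 45.5-fold and the chromatin-bound pluripotency factor Utf1 at 42.4-fold. Grb7, Csrp1, Slc7a7 and Apoe, whose protein carries lipids, completed the 15 largest, at 38.3-fold to 39.9-fold or more. Other probes of Snrpn, Rangrf and Nanog gave smaller log2 differences, of 4.52, 4.83 and 3.60 to 4.51.

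In the opposite direction the bounds were smaller. Polr1b, a subunit of RNA polymerase I, was at least 35.2-fold lower in iPSC, with 10.14 and 10.13 in feeder cells and 4.63, 4.66 and 4.54 in iPSC. Capn6 was at least 34.1-fold lower, with 10.07 and 10.11 against 4.75, 4.97 and 4.91. The groups were far apart for both, and each probe was below detection on all 3 feeder-free arrays. No other probe of either gene was kept, so each difference rests on a single probe. The limb homeobox gene Shox2 followed at 26.8-fold, Hoxc6 at 22.3-fold, Sspn at 21.9-fold, and the transcription factor gene Ebf3 and the lysosomal sulfatase gene Arsb at 21.2-fold each. Gdnf, a neurotrophic factor of mesenchyme, was at least 19.3-fold and Cd34, a surface protein of fibroblasts and blood progenitors, at least 18.7-fold lower. Dhrs9, 2510009E07Rik, Ptx3 (a secreted pattern-recognition protein), Mgp (an inhibitor of calcification), Msln and Phex had bounds from 13.2-fold to 16.3-fold. Other probes of Shox2, Hoxc6, Ebf3 and Arsb gave smaller differences of -2.66, -0.67, -1.19 and -1.11. So did those of Dhrs9 (-2.93 and -1.21), 2510009E07Rik (-1.98) and Ptx3 (-3.85).

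Among the 7122 genes detected on all 5 arrays, a fold can be stated directly. The largest in iPSC was that of Dnmt3b, the de novo DNA methyltransferase of early embryos, with 7.81 and 8.05 in feeder cells and 13.47, 13.36 and 13.43 in iPSC (44.9-fold, log2 5.49 ± 0.12 SE, adjusted p = 1.49e-12). A second probe of Dnmt3b differed by 2.77. Dnmt3b was followed by the uridine phosphorylase gene Upp1 (5.47), the basement membrane collagen gene Col18a1 (4.92), Rbpms2 (4.66), the ribonucleotide reductase subunit Rrm1 (4.53) and the homeobox gene Gbx2 (4.49), all as log2 differences. Second probes of Upp1 and Col18a1 gave 2.46 and 1.72. Urah, Igf2, the RNA-binding protein gene Rbpms, Stxbp2, Crip2, the cytokine-signal inhibitor Socs2, the histone demethylase gene Kdm5b, Alg13 and the Polycomb gene Cbx7 made up the 15 largest, from 4.40 down to 4.01. Among the genes detected on all 5 arrays the largest falls were greater than these rises. Over all genes tested the largest rise was 8.22 and the largest fall -7.68. Ptn, encoding the secreted growth factor pleiotrophin, had 13.23 and 13.45 in feeder cells and 5.97, 5.52 and 5.50 in iPSC, and was 205-fold lower (log2 -7.68 ± 0.14 SE, adjusted p = 9.14e-13). Hoxa5 was 73.7-fold lower, with 11.43 and 11.49 against 5.36, 5.23 and 5.18. The groups did not overlap for either gene. Col6a1, Cavin2, Loxl1, Igfbp6, Vcam1, Nfix, Twist2, Emp3, Axl, Serpinf1, Cxcl12, the DNA sensor gene Cgas and the cell-cycle inhibitor gene Cdkn2c followed, with log2 differences from -5.94 to -4.94. A second probe of Serpinf1 differed by only -0.33, and one of Cgas by -1.65.

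**Figure D2:**
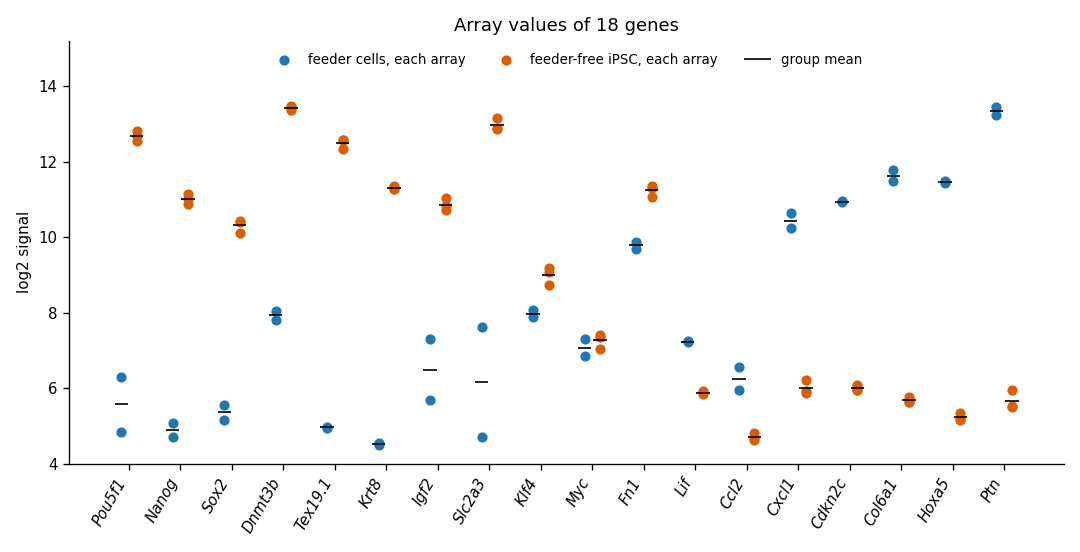
Log2 signal of 18 genes on each of the 2 feeder arrays and 3 feeder-free arrays, with lines at the group means. Array values of the groups overlap for Myc alone among the genes drawn, and Pou5f1, Igf2 and Slc2a3 show the wide gap between the 2 feeder arrays.

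The transcription factors of pluripotency were higher in iPSC as a body. Counts of this and every later list stand against 40.8% of all genes tested called higher and 41.1% called lower. All 17 core factors tested of 21 listed were called higher, with a median of 4.95 (4.50 where genes undetected in feeder cells are set to their bound), and 10 of them were detected in iPSC only. The largest differences with a measured fold were those of Dppa4 (7.18), Pou5f1 (7.09) and Esrrb (6.76), all of them seen on a single feeder array. The largest bounds in that list were those of Nanog, at least 46.7-fold, and Utf1, at least 42.4-fold. Sox2, at 4.95, lay at the median. The smallest was that of Zfp42, whose probe was dim in iPSC too (5.18, 5.43 and 5.19). Zfp42 was no longer called when arrays were scaled over the kept probes. Sox2 had 5.17 and 5.57 in feeder cells and 10.12, 10.40 and 10.43 in iPSC (30.8-fold). Lin28a, which blocks maturation of let-7 microRNAs, was higher by 3.15. A second probe of Esrrb was called lower by 0.5 log2 units, against the main one.

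In the list of naive pluripotency genes 16 of 17 tested were called higher, with a median of 2.30. That list is wider than its name, since Otx2 and Dnmt3l in it are not markers of the naive state. Dnmt3l, a cofactor of the de novo methyltransferases, differed most (8.22), with 4.65 and 6.08 in feeder cells and 13.71, 13.50 and 13.55 in iPSC. Fbxo15 (6.96), Tfcp2l1 (at least 31.2-fold) and Otx2 (at least 25.2-fold) came next, and the Krüppel-like factors were graded, with Klf2 at 3.95, Klf5 at 1.61 and Klf4 at 1.03. Klf4 had 7.88 and 8.06 in feeder cells and 8.74, 9.08 and 9.20 in iPSC, and was thus clearly measured in both groups. Tbx3 did not pass the test (0.04, adjusted p = 0.738), and was called higher with scaling over all probes (0.60). The parts of the LIF receptor were higher in iPSC, Lifr by at least 1.2-fold and Il6st by at least 1.64-fold, and Stat3 was higher by 0.78, a call lost when the arrays were scaled over the kept probes. Myc, the remaining reprogramming factor of the classical set, had 6.85 and 7.29 in feeder cells and 7.37, 7.42 and 7.03 in iPSC. Its groups overlapped, and its difference of 0.20 ± 0.20 SE did not pass (adjusted p = 0.372). With scaling over all probes Myc was called higher by 0.81. Its relative Mycl was at least 5.19-fold higher, as were the oncofetal genes Trim71 (25.2-fold or more), Arid3b (8.63-fold or more) and Igf2bp1 (log2 3.38), so that 6 of 8 members of that list were called higher.

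Enzymes of DNA methylation and chromatin moved with these factors in part. Of 13 methylation genes tested 10 were higher and 1, Gadd45a, was lower (-0.59). Dnmt3b and Dnmt3l far exceeded the maintenance enzymes Dnmt1 (1.11) and Uhrf1 (1.10), and the dioxygenase gene Tet2 was higher by 1.0. Of 17 Polycomb and remodelling subunits 12 were higher and 3 lower, with a median of 1.56. The Polycomb genes Cbx7 (4.01), Phc1 (3.02), Eed (2.67) and Ezh2 (1.56) were higher. Among the BAF complex subunits the paralogues went opposite ways: Smarcd1 (2.09), Smarcc1 (1.25) and the ATPase Smarca4 (1.06) were higher, and Smarcd3 (-2.34), Smarcc2 (-1.63) and the ATPase Smarca2 (-0.55) lower. The call of Smarca2 was lost with scaling over all probes. The BAF complex is known to exchange these paralogues between stem cells and differentiated cells.

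Epithelial genes were another group of iPSC. Of 21 tested, 17 were higher and 2 lower, with a median of 2.54 (1.54 at the bounds), and 13 of those higher were detected in iPSC only. Krt8 had 4.51 and 4.56 in feeder cells and 11.28, 11.27 and 11.34 in iPSC, and its partner keratin Krt18 was at least 20.8-fold higher. Esrp1 and Esrp2, the splicing regulators of epithelia, were at least 16.7-fold and 5.92-fold higher, the transcription factor Grhl2 at least 7.59-fold, the tight-junction gene Cldn4 by 4.91, and E-cadherin, Cdh1, at least 5.03-fold. Cdh1 had 4.79 and 4.84 in feeder cells, where it was not well above background, and 7.69, 7.63 and 8.08 in iPSC. Ovol2 (-1.21) and Cldn9 (-0.90) were lower in iPSC, and Tjp1 (0.43, adjusted p = 0.0561) and Crb3 (0.33, adjusted p = 0.090) did not pass. The probe of Epcam was detected on none of the 5 arrays.

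Germline and imprinted genes held some of the largest differences. Of 14 germline genes tested 12 were higher and none lower, with a median of 1.84 (1.46 at the bounds). Detection in iPSC only held for 10 of the 14, so the direction of these follows largely from how they passed the filter. The list was led by Tex19.1, Dppa3 (at least 13.4-fold), the piRNA-pathway genes Tdrd12 (at least 11-fold) and Piwil2 (at least 7.80-fold), and the meiotic cohesin gene Stag3 (at least 5.78-fold). The vasa homologue Ddx4 was at least 1.78-fold higher. Of 23 imprinted genes 15 were higher and 7 lower, with a median of 0.65 (0.35 at the bounds). Over all genes tested 40.8% were called higher and 41.1% lower. Snrpn and Snurf share a transcript, so their probes do not measure separate genes, and Snurf was higher by 7.64. Phlda2 and Cdkn1c (at least 36.1-fold) lie in 1 imprinted domain and are growth restrainers, whereas Igf2 (4.37) is a growth factor. Ndn was at least 11.4-fold and Nnat at least 5.97-fold higher. Dlk1, a transmembrane inhibitor of differentiation, had 13.08 and 13.19 in feeder cells and 9.56, 9.51 and 9.67 in iPSC. It fell by 3.56, and Mest by 1.98, and Dcn, which is also a matrix gene, by 2.79.

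Genes of the extraembryonic lineages were present in iPSC as well. Of 24 primitive endoderm and trophoblast genes tested 17 were higher and 6 lower, with a median of 1.82 (1.26 at the bounds). Detection in iPSC only held for 11 of the 24, so the direction of these follows largely from how they passed the filter. Gata6 (at least 20.2-fold) and Sox17 (at least 14.5-fold), transcription factors of primitive endoderm, Gata4 (3.79), Sox7 (at least 5.82-fold), Foxq1 (at least 11.4-fold) and the endocytic co-receptor gene Amn (3.87) were higher, as was Tfap2c (at least 21.5-fold), which trophoblast shares with germ cells. The opposite held for Gata2 (-3.19), Gata3 (-0.99) and Cdx2 (-0.61), the calls of Gata3 and Cdx2 being lost with scaling over all probes. The whole lists of other lineages were mixed. Of 10 endothelial markers 8 were higher, led by Pecam1 (at least 15.8-fold), a surface protein that pluripotent cells also carry, and Emcn and Kdr were lower by under 1 log2 unit. Of 7 neural markers 4 were higher, with Stmn2 at least 14.4-fold, and of 6 keratinocyte markers 4. Among adipocyte, cartilage and bone genes Sox9 (-4.54) and Lpl (-2.66) were lower and Alpl, an alkaline phosphatase also used as a stem cell marker, higher (3.32). In muscle Tnnt2 was lower (-2.18) and Tnnt1 at least 9.42-fold higher. The medians of the neural, muscle and adipocyte lists changed sign with the scaling. What part cells of these types had in the differences was not tested.

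Transcription factors of mesenchyme and of body position were mostly lower in iPSC. Of 17 mesenchymal factors tested 13 were lower and 3 higher in iPSC, with a median of -1.80. Osr2 (-5.76), Twist2 (-5.37), Ebf3 and Msx1 (-3.81) differed most, and Twist1 (-3.35) and the repressor of E-cadherin Snai2 (at least 5.83-fold) were lower too. Twist2 had 10.80 and 10.82 in feeder cells and 5.81, 5.07 and 5.43 in iPSC. Zeb1, another such repressor, was lower by 1.15, and Snai1 did not pass (0.14, adjusted p = 0.488), but was called higher with scaling over all probes (0.70). Meox1, Creb3l1 and Glis2 were called higher at levels near background, calls that were lost when arrays were scaled over the kept probes. Of 37 Hox genes on the array 17 were tested, and no feeder or feeder-free array detected the rest. Among the 17 tested 13 were lower, 4 did not pass and none was higher, with a median of -1.10 (-0.91 at the bounds). Detection in feeder cells only held for 7 of them. The lower Hox genes came from all 4 clusters, with Hoxa5, Hoxa7 (-4.18) and Hoxa2 (at least 7.27-fold), Hoxb2 (-3.13) and Hoxb5 (at least 4.46-fold), Hoxc6 and Hoxc9 (-1.88), and Hoxd11 (at least 1.88-fold).

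Collagen chains were mostly lower in iPSC, with exceptions. Of 16 collagen chains tested 11 were lower and 5 higher in iPSC, with a median of -1.78. Col6a1 had 11.48 and 11.77 in feeder cells and 5.76, 5.63 and 5.65 in iPSC (61.5-fold lower), and Col1a1 was 22.7-fold lower. Col4a5 (-4.13) and Col16a1 (-3.98) followed. The 5 higher chains were Col18a1, Col4a1 (3.10), Col4a2 (2.07), Col9a3 (at least 4.17-fold) and Col27a1 (at least 1.02-fold). Of 24 matrix glycoproteins and proteoglycans 13 were lower and 9 higher. Bgn (-4.18), Prelp (at least 10.1-fold), Thbs2 (-3.43), Ecm1 (-3.36) and Dcn were lower, while the laminin chains Lama5 (at least 8.46-fold), Lamc1 (3.04) and Lamb1 (at least 1.67-fold), Sparc (at least 3.51-fold), and the basement membrane proteoglycans Agrn (1.70) and Hspg2 (1.09) were higher. The median of that list was -0.52 and shrank to -0.06 with scaling over all probes. Fn1 had 9.68 and 9.88 in feeder cells and 11.07, 11.31 and 11.35 in iPSC, where it was higher by 1.46 ± 0.13 SE (adjusted p = 3.74e-07).

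Enzymes that mature collagen were lower in 13 and higher in 7 of 21 cases. The crosslinking oxidases Lox (-6.80), Loxl1 (-5.75) and Loxl4 (-3.59) were lower, and another of the family, Loxl2, was higher (2.59). Lox had 11.93 and 11.90 in feeder cells and 5.38, 5.09 and 4.90 in iPSC. The procollagen enhancers likewise went apart, Pcolce being lower (-3.29) and Pcolce2 at least 9.58-fold higher, and so did the lysyl hydroxylases, with Plod3 (-1.69) lower and Plod2 (2.73) higher. Of 22 matrix proteases and inhibitors 17 were lower and 3 higher, with a median of -1.61. Proteases and their inhibitors were lower side by side: Mmp14 (-3.77), Mmp3 (-3.15), Mmp2 (-2.10), the urokinase Plau (-3.16) and Adamts5 (-4.21), and Timp2 (-4.07), Timp3 (-3.12) and Timp1 (-3.02). Adam19 (2.91), Htra1 (1.5) and Mmp23 were higher, the last near background and losing its call with scaling over the kept probes.

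In a list of fibroblast molecules, most but not all of the cell surface, 16 of 21 tested were lower and 4 higher (median -1.20). Ly6c1 (-5.56), the adhesion molecule Vcam1 (-5.53), the receptor kinase Axl (-5.22), the calcium-binding protein gene S100a4 (-4.55), the hyaluronan receptor Cd44 (-4.29) and Thy1 (-4.10) led. Anpep (at least 3.36-fold), Eng (1.46), Itgb5 (1.43) and Mcam (0.89) were higher. The actin and caveola genes had the lowest median of the 34 lists of function, -2.07, with 25 of 30 lower. All of the caveolar genes tested were lower, the coat proteins Cavin2 (-5.82), Cavin3 (-4.81) and Cavin1 (-2.83) and the caveolins Cav1 (-4.62) and Cav2 (-4.60). Vim, the intermediate filament gene of mesenchyme, was lower by 2.14 but remained bright in iPSC, with 12.08, 12.08 and 12.14 against 14.23 and 14.24 in feeder cells. Csrp1, a cytoskeletal LIM protein, went against the list, with 4.74 and 4.72 in feeder cells and 10.75, 10.82 and 10.76 in iPSC. Vcl (0.50) and Tagln, which no feeder array detected, were also called higher, calls lost with scaling over the kept probes, and Myh9 (-0.11, adjusted p = 0.328) and Tagln2 (-0.31, adjusted p = 0.0830) did not pass. These last genes were called lower with scaling over the kept probes (-0.84 and -1.02). Of the YAP, TEAD and serum response targets 10 of 18 were lower and 4 higher, Ankrd1 by -3.24 and Ccn1 by -0.90, whereas Ccn2, the relative of Ccn1, had 6.53 and 6.53 in feeder cells and 10.21, 10.12 and 10.32 in iPSC (12.8-fold higher). Yap1 itself did not pass (-0.06, adjusted p = 0.724), but was called lower with scaling over the kept probes (-0.61).

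**Figure D3:**
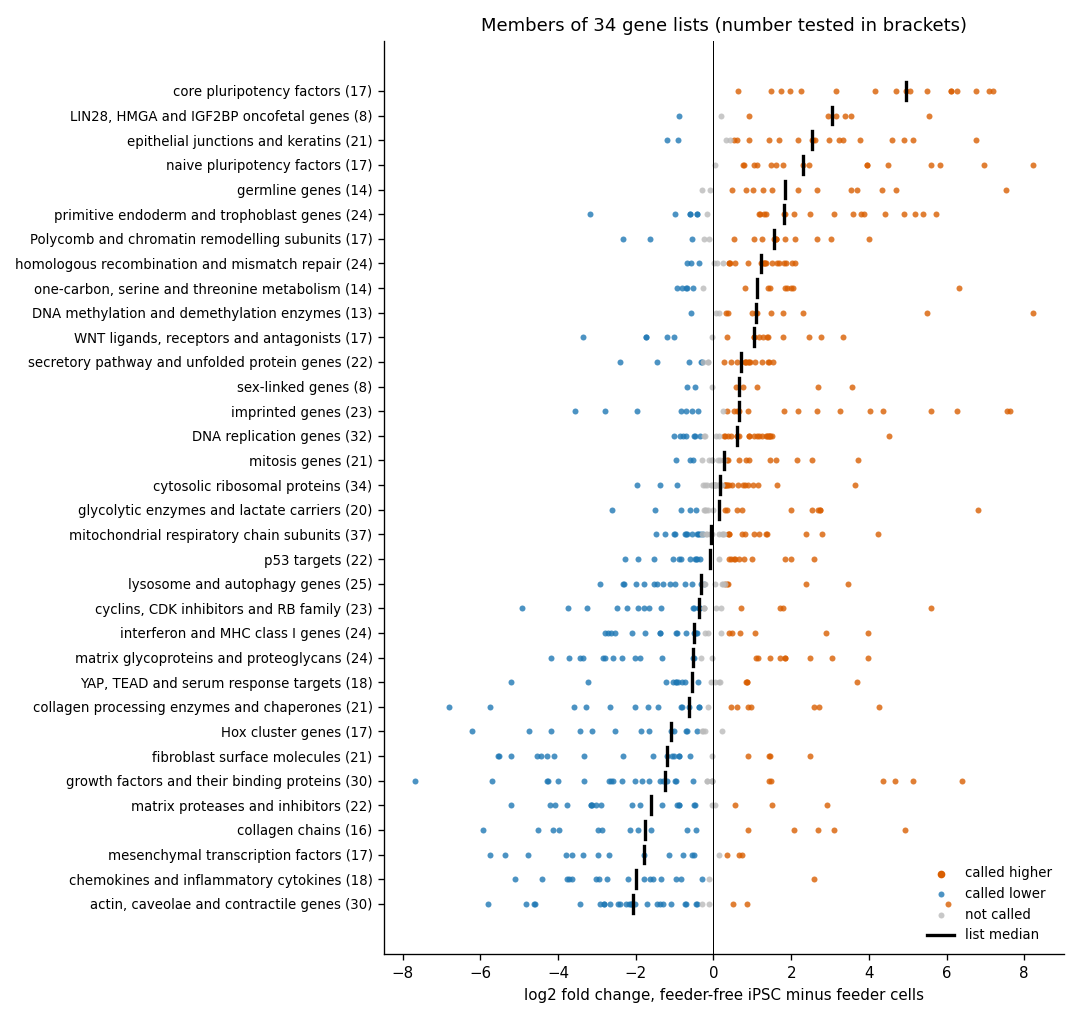
Log2 fold change (horizontal axis) of each member tested in 34 gene lists, ordered by list median (black bars), with called genes in colour and the number tested in brackets. Core pluripotency factors have the highest median, 4.95, and the actin and caveola genes the lowest, -2.07.

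The secreted signals of feeder cells bear on the series' question, since its title names the chemokine Ccl2 and LIF. Of 18 chemokines and cytokines tested, 16 were lower in iPSC and 1 higher, with a median of -2.0 (-1.61 at the bounds). Ccl2 had 6.55 and 5.96 in feeder cells and 4.62, 4.83 and 4.69 in iPSC, where no array detected it. It was at least 2.40-fold lower (adjusted p = 1.41e-06), and its signal in feeder cells was itself weak. Lif had 7.25 and 7.23 in feeder cells and 5.92, 5.90 and 5.85 in iPSC, with a 2.55-fold difference (adjusted p = 6.11e-08). Brighter signals came from other members. Cxcl12, which guides stem and immune cells, had 11.05 and 11.11 in feeder cells and 6.25, 6.04 and 5.65 in iPSC (34.2-fold lower), and Cxcl1, which attracts neutrophils, had 10.64 and 10.24 against 6.23, 5.87 and 5.93 (21.5-fold lower). Ccl9 was at least 10.5-fold lower, Ccl7 lower by 3.64 and the macrophage growth factor Csf1 by 3.02. Cxcl16 was the single member higher in iPSC (2.58), by its brightest probe.

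Growth factors and their binding proteins were lower in 19 and higher in 6 of 30 cases. After Ptn came Igfbp6 (-5.71), Igf1 (-4.30), Tgfb3 (-4.26) and the latency protein Ltbp3 (-3.99), and the BMP antagonist Grem1 was lower by 2.69. Members of the same families were higher in iPSC: Mdk, the relative of Ptn, at least 19.4-fold, Igf2 by 4.37, Igfbp2 by 6.40, Tgfb1 at least 1.68-fold, and Bmp4 at least 16.1-fold. Mdk and Ptn thus had opposite patterns, as had Igf2 and Igf1. Among WNT genes 11 of 17 were higher, with a median of 1.05, including the receptor Ror2 (at least 5.51-fold) and the pathway targets Lef1 (at least 3.51-fold) and Axin2 (at least 4.23-fold). The ligand Wnt5a was lower by 3.36, and Wnt9a and the receptor Fzd2 by 1.72 and 1.74.

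Defence and lysosomal genes were lower more often than higher, against 41.1% lower and 40.8% higher over all genes. Of 24 interferon and MHC class I genes 15 were lower and 6 higher, with a median of -0.49. The MHC light chain B2m was lower by 2.65 and had 10.23, 10.57 and 10.30 on the feeder-free arrays, and H2-D1 was lower by 2.09, as were Ifi27 (-2.79), Ifit2 (-2.71) and Mx2 (at least 4.28-fold). Bst2, which tethers enveloped viruses (2.90), and the immunoproteasome subunits Psmb8 (at least 9.30-fold) and Psmb10 (1.07) were higher. Of 25 lysosome and autophagy genes 14 were lower and 5 higher. Gusb (-2.92), Lamp2 (-2.33), Gabarapl1 (-2.30) and Cd63 (-2.01) were lower, and Ctsh (at least 5.52-fold) and Neu1 (2.39) higher, although another probe of Neu1 was called lower by 0.6. Of 22 secretory and unfolded-protein genes 14 were higher, by at most 1.52 (Atf4, whose probes disagreed), and Ddit3, the stress-induced CHOP gene, was lower by 2.41.

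Genes of the cell cycle were compared by their part in it. The growth protocol names mitomycin C for feeder cells, and what part this treatment had in the differences was not tested. Of 32 replication genes 21 were higher and 7 lower in iPSC, with a median of 0.62, and after Rrm1 the next largest difference was 1.5 in size. Of 21 mitosis genes 11 were higher and 3 lower, led by Kif23 (3.73), Bub1b (2.53), Tpx2 (2.14) and Top2a (1.62), and the median of 0.28 changed sign when arrays were scaled over the kept probes. Of 24 homologous recombination and mismatch repair genes 18 were higher and 3 lower, with a median of 1.23, and under all 3 scalings 15 stayed higher and none stayed lower. Fanci (2.10), Brca2 (2.02), Chek2 (1.86) and Msh6 (1.82) differed most. The regulators were mostly lower, 14 of 23 against 4 higher. Their median was -0.38 (-0.06 with scaling over all probes), and under all 3 scalings 9 stayed lower and 3 higher. Cdkn2c had 10.93 and 10.95 in feeder cells and 5.95, 5.97 and 6.08 in iPSC (30.7-fold lower), and the inhibitors Cdkn2b (-3.74) and Cdkn1a (-1.95) and the D cyclins Ccnd2 (-3.25) and Ccnd1 (-2.49) were lower with it. Cyclin E1, Ccne1, was higher (1.71) and Ccne2 lower (-1.66). Cdkn1c, an inhibitor of the same family as Cdkn1a, had 4.92 and 5.17 in feeder cells and 10.71, 10.63 and 10.58 in iPSC, and Cdkn2a was at least 2.91-fold higher. Of 22 p53 targets 10 were higher and 11 lower, with a median of -0.10 that became 0.31 with scaling over all probes. Shares over all genes were 40.8% higher and 41.1% lower, so these counts do not set the p53 targets apart.

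Metabolic lists held members that differed widely in both directions. Their counts stand beside 40.8% of all genes called higher and 41.1% called lower. Of 20 glycolysis genes 10 were higher and 5 lower, with a median of 0.15 that changed sign with scaling over the kept probes. The isoforms differed within steps of the pathway. Slc2a3 (6.80) and Slc2a1 (2.00), the glucose carriers, Hk2 (2.75), Aldoc (2.74), Pfkp (2.70) and the kinase Pdk1 (2.54) were higher, and Eno2 (-2.62) and Eno3 (-1.50) lower, while Gapdh (-0.01, adjusted p = 0.966), Pkm (-0.13) and Ldha (-0.21) did not pass. All of these last were called lower with scaling over the kept probes (-0.74, -0.76 and -0.83). Hk2 had 9.67 and 9.67 in feeder cells and 12.51, 12.43 and 12.31 in iPSC. Of 14 one-carbon genes 8 were higher and 5 lower, with a median of 1.11, led by Gldc, which had 4.78 and 4.89 in feeder cells and 11.27, 11.14 and 11.08 in iPSC. The cytosolic enzymes Shmt1 (1.84) and Mthfd1 (1.44) were higher and the mitochondrial Shmt2 (-0.93) and Mthfd2 (-0.81) lower. Of 37 respiratory chain subunits 12 were higher and 13 lower, with a median of -0.07 that became 0.13 with scaling over all probes, and Cox7a1 (at least 11.7-fold) and Cox6a2 (at least 2.20-fold lower), both muscle-type isoforms, lay at the ends. Of 34 ribosomal proteins 15 were higher, 3 lower and 16 not called, and their median of 0.17 changed sign with scaling over the kept probes. Ribosomal protein genes have many near-identical pseudogenes, so single differences such as Rpl30 (3.63) are uncertain.

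Sex-linked genes were also measured. Eif2s3y, on the Y chromosome, had 4.41 and 4.42 in feeder cells, where it was not detected, and 8.32, 7.71 and 7.91 in iPSC. Uty, also on the Y chromosome, was detected in both groups, with 5.96 and 6.17 in feeder cells and 5.19, 5.48 and 5.48 in iPSC, a difference of -0.68 whose call was lost with scaling over all probes. Xist, which silences an X chromosome in female cells, was dim in both, with 5.95 and 5.22 against 5.06, 5.19 and 5.08.

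Genes of some chromosomes were shifted together. The median difference ran from -0.47 on chromosome 5 (658 genes) and -0.46 on chromosome 19 (359 genes) to 0.34 on chromosome 14 (347 genes) and 0.38 on chromosome 16 (306 genes). On chromosome 5, 54.9% of genes were called lower and 27.2% higher, against 41.1% and 40.8% over all genes, and on chromosome 16 30.4% lower and 54.2% higher. Each feeder-free array gave the pattern, with medians of -0.47, -0.45 and -0.46 for chromosome 5 and of 0.39, 0.39 and 0.36 for chromosome 16, all against the same feeder mean. With scaling over all probes the medians were -0.18 for chromosome 5 and 0.69 for chromosome 16. Scaling over the kept probes moves every chromosome by the same amount from there, to -0.85 and 0.02 for these. Among genes detected on all 5 arrays the lowest medians were again those of chromosome 19 (-0.66 over 261 genes) and chromosome 5 (-0.65 over 505 genes). At the high end of these genes chromosome 16 had 0.25 (215 genes) and chromosome 18 had 0.22 (166 genes). Chromosome 14 had only 0.05 (239 genes), so its shift was mostly absent among genes detected in both groups. What the genes of a chromosome shared was not tested.

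**Figure D4:**
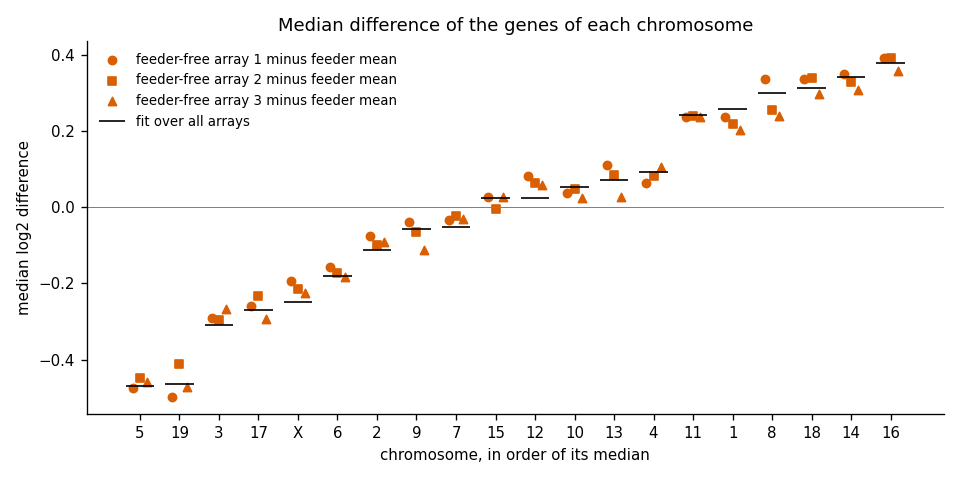
Median log2 difference of the genes on each chromosome, for each feeder-free array against the mean of the 2 feeder arrays (symbols) and in the fit (lines), in order of size. Chromosomes 5 and 19 lie lowest, at -0.47 and -0.46, and chromosome 16 highest, at 0.38, on all 3 arrays.

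Promoters of the genes at both extremes had fewer CpG dinucleotides than those of the genes tested, and more than all promoters in the table. RefSeq promoters, from 250 bases before to 50 after a gene's start on GRCm38.p6, were matched for 8173 of the 10058 genes tested, at the first start listed. The median was 21 CpG in 300 bases over all genes tested, 7 over all 27025 promoters in the table, 16 for genes at least 10-fold higher in iPSC and 14 for those at least 10-fold lower. Promoters with under 5 CpG made up 8.42% over all genes tested, 13.9% of those 10-fold higher, 16.8% of those 10-fold lower and 30.3% of the genes detected in feeder cells only, against 38.3% of all promoters in the table. Of the motifs searched on both strands, the octamer core ATGCAAA, which Oct4 is known to bind, was in 3.36% of promoters of all genes tested, in 5.26% of those 10-fold higher and in 0.84% of those 10-fold lower. The AP-1 motif TGANTCA was in 4.99%, 6.70% and 12.6% in the same order, and the TATA box TATAAA, anywhere in the window, in 8.01%, 12.4% and 12.6%. On the strand of the gene and within 50 bases before the start, TATAAA was in only 1.93%, 3.35% and 4.2%. The 10-fold sets held only 209 promoters of higher and 119 of lower genes, so small shares rest on very few promoters. Among genes at least 2-fold higher and at least 2-fold lower, the octamer core was in 3.64% and 3.06%. The AP-1 motif was in 4.46% and 5.94% of these larger sets, and the TATA box in 7.98% and 7.67%. Among genes detected in feeder cells only the AP-1 motif was in 13.8% and the GC box GGGCGG in 40.0%, against 64.5% over all genes tested. The CCAAT box, the TEAD motif GGAATG and the E-box CACGTG were searched as well, and their shares in the 10-fold higher, the 10-fold lower and all promoters tested were 38.8%, 31.1% and 38.8%, then 12.9%, 13.4% and 11.9%, then 7.66%, 4.20% and 10.3%. The sets were chosen by fold, so these shares are descriptions.

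Promoters of 5 genes are shown because each holds the octamer core, the AP-1 motif or a TATA box and its gene differed strongly: Nanog and Sox2 with the octamer core, Col6a1 and Capn6 with the AP-1 motif, and Emp3 with a TATA box. They were picked after their motifs were known. Sequences run 5′ to 3′ on the strand of the gene, and capitals mark that motif, on either strand. The Sox2 and Capn6 windows also hold GC boxes and a CCAAT box, which are left in lower case.
Nanog: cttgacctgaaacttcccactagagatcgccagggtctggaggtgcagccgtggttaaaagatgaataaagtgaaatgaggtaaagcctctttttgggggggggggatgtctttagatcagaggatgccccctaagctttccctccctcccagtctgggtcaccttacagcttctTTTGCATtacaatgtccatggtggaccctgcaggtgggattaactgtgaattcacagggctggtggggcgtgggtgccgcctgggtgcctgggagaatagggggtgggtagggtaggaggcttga
Sox2: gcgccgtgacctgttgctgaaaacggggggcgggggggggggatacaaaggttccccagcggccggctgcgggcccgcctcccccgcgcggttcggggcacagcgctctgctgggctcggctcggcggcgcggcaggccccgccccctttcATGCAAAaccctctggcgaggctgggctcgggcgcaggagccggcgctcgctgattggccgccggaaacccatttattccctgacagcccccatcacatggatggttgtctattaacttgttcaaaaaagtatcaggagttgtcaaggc
Col6a1: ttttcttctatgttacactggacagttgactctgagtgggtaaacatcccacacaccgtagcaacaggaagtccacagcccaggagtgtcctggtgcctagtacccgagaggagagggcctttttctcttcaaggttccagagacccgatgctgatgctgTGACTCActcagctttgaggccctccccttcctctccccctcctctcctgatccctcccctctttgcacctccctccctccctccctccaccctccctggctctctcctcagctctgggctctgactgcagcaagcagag
Capn6: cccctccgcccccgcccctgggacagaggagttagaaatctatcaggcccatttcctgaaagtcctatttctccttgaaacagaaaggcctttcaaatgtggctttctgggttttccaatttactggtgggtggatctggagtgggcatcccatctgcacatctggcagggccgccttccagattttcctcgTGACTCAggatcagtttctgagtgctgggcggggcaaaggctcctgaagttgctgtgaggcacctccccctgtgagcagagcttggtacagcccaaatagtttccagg
Emp3: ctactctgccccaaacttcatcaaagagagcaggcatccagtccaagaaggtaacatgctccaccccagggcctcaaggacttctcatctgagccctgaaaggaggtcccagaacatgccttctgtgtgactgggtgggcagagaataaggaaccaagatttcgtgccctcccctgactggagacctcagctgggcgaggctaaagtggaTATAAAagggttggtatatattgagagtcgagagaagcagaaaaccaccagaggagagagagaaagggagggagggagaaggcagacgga
Nanog lies at chr6:122707239-122707538 on the plus strand, and its octamer core begins 75 bases before the listed start. Sox2 lies at chr3:34649745-34650044 on the plus strand, with the motif 99 bases before the start. Col6a1 lies at chr10:76725995-76726294 on the minus strand, with the motif 90 bases before the start, and Capn6 at chrX:143827363-143827662 on the minus strand, with the motif 58 bases before it. Emp3 lies at chr7:45921377-45921676 on the minus strand, and its TATA box begins 40 bases before the start. The windows hold 4, 27, 3, 5 and 4 CpG in that order, so Sox2 is the single CpG-rich one. Emp3 encodes a membrane protein and had 14.02 and 14.05 in feeder cells and 8.80, 8.71 and 8.59 in iPSC. A match of letters is a description and shows no binding.

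**Figure D5:**
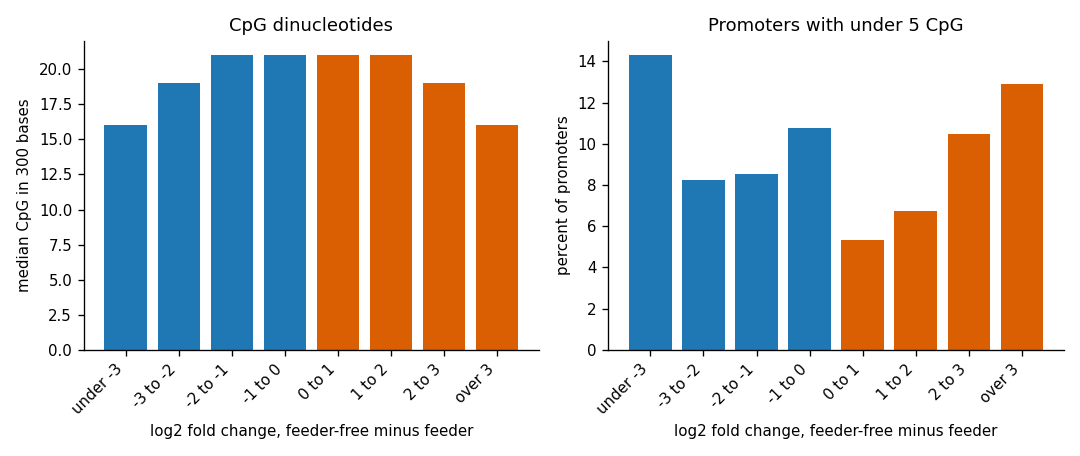
Median number of CpG dinucleotides in the 300-base promoter (left) and share of promoters with under 5 CpG (right), by the gene's log2 fold change in steps from under -3 to over 3. The median is 21 in the 4 middle steps and 16 in both outer ones.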

How the data were processed

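Total RNA was hybridized as biotinylated cRNA to Illumina arrays, per the labels. The deposited table gives 1 bead intensity per probe, not normalized, per the file headers. A deposited score of detection accompanies each array. Its header calls it a p-value, but it increased with intensity (Spearman 0.9961 to 0.9987) and was read as 1 minus p. For feeder-free arrays, the score directly after each pooled column was taken as that of the recovered array of the same number. The probe filter, the detection counts and the bounds rest on this assignment by position. The submitters' processing notes name limma without saying what it was used for. Each feeder-free array was recovered from its mixture (92% feeder-free, 8% feeder), since the columns under the feeder-free names hold pooled signal. Weighted sums of these arrays matched the pooled columns within 0.001 signal units on 95.7% of probes. The deposited value table was not used here, since its feeder-free columns did not follow the signals.

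Of 46632 entries, 5 had no probe ID and were left out. Signals were corrected with normexp (offset 16), quantile normalized and put on the log2 scale. The 18144 probes with a score over 0.95 on every array of a group were kept. GEO's platform annotation, updated through RefSeq, names 1 gene for 29972 probes, several for 10 and none for 16645. The brightest probe stood for each gene. limma (version 3.58.1) fitted 8 arrays, 3 of them of iPSC on feeder cells, with 2-sided moderated tests, and was tested on simulated data. The number of arrays limits the precision.

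The genes named were, among those called with arrays not overlapping, the 15 largest rises and falls on all 5 arrays, the 15 largest bounds in each direction, and in each list the 4 largest changes in the direction of its median and the 3 largest against it, with the members needed to account for the list. Ccl2, Lif, Cxcl1, Pou5f1, Nanog, Klf4 and Myc were named in any case. The comparison and the 42 lists, 8 of them of markers, were chosen with earlier results of these data known. Alternatives changed the background correction, scaling, probe filter, probe summary, arrays fitted and replicate block, or left out an array.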

Additional observations from a re-analysis of the deposited data

How the results depend on the processing

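Scaling moved the calls most. With median scaling over all probes, 2368 genes were lower in iPSC instead of 4130, and over the kept probes 2799 were higher and 5193 lower. The other settings on all arrays gave 3653 to 4234 higher and 3416 to 4974 lower genes, and leaving out an array 3812 to 4066 higher and 3942 to 4116 lower. Genes detected in feeder cells only numbered 264, and 290 to 419 when an array was left out, the most without the second feeder array. Those detected in iPSC only numbered 1710, and 1740 to 2013 when an array was left out. A lone feeder array was assumed to vary like the other groups. Deviations of same-numbered feeder and feeder-free samples had r = 0.067 for number 1 and r = -0.003 for number 2. The 2 feeder arrays deviate as mirror images of each other, so these values say little about pairing. The replicate block gave 4029 higher and 4024 lower genes.

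With scaling over the kept probes the list medians turned to -0.35 for mitosis, -0.38 for glycolysis, -0.39 for ribosomal proteins, -0.24 for muscle and -0.18 for neural markers. Without the filter on dim probes they turned to -0.0587 for leukocyte, -0.0237 for neural and 0.0191 for adipocyte, cartilage and bone markers, the last being 0.0715 with scaling over all probes. Single genes turned sign without being called. With scaling over the kept probes these were Crb3 (-0.25), Glis2 (-0.0431), Tbx3 (-0.0659), Tjp1 (-0.20) and Zfp42 (-0.0144), with scaling over all probes Kdr (0.22), Smarca2 (0.13) and Yap1 (0.0634), with the mean of probes Gapdh (0.0752) and Pkm (0.23), and with the replicate block Yap1 (0.0229). Leaving out 1 array moved Gapdh from -0.0362 to 0.0578, Myc from -0.0206 to 0.41, Snai1 from -0.0443 to 0.26, Tbx3 from -0.0410 to 0.12 and Yap1 from -0.20 to 0.0393. The causes were not tested.

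The recovered feeder-free values rest on the stated mixing share and on the feeder mean that they are compared with. Genes near background have bounds only.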

Other observations

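Of 18144 probes kept, 14531 were called, 7483 of them higher in iPSC. Probes with no gene listed made up 3992 of them, of which 1563 were higher and 1580 lower. Of 3039 genes with several kept probes, 1564 had all probes called one way and 453 had probes called both ways. For 422 genes another probe was called opposite to the brightest one, and 137 of these genes were at least 2-fold different.

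Fbxw5, chosen after its values were seen, differed most between the feeder arrays, with 5.29 and 10.18 against 6.25 on average in iPSC. Its difference was -3.89 without the first feeder array and 0.98 without the second.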
